A study of Caenorhabditis elegans with 8 samples.

Results

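The 38 genes described here are named genes of the Caenorhabditis elegans germ line, listed by name, with no measured value in the rule, though earlier results of these data were known when the list was made: 8 genes of germline stem cells and translational control, 7 germ granule genes, and 23 genes of meiosis. All 38 were found among the 47087 loci of the deposited table and all 38 passed the filter on low values, an average FPKM of 1 or more across the 8 libraries, as did 14358 loci in all. No locus carried the bare symbol rad-54, and rad-54.L, the gene formerly called rad-54, was taken for it. The poly(A) RNA came from whole wild-type (N2) animals that the labels place at young adulthood after 40 h of culture at 20 °C. In the DL group, 4 libraries, animals were kept in cycles of 12 h of light at 8000 lux and 12 h of darkness; in the NL group, also 4 libraries, they stayed in constant darkness. The batch number used here is the replicate number in the title of each library, giving 4 batches of 1 DL and 1 NL library. The sources used here state no batch and do not say what libraries of the same number share. A library is named by its group and batch (DL 2, NL 3). Neither the number of light cycles nor the use of separate cultures is stated, and p-values therefore measure only how these libraries scatter, which may be technical.

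In the worm gonad, Notch signalling from the tip of the gonad keeps germ cells dividing, and RNA-binding proteins then release them into meiosis by changing which messages are translated. Germ granules (P granules) are RNA and protein bodies that surround the germ cell nuclei. In meiosis each pair of homologs is held by a pairing centre protein, an axis is built along every chromosome, the synaptonemal complex joins the homologs, and breaks made on purpose are repaired as crossovers. Most of these genes are used mainly in germ cells, and for them a whole-animal library cannot tell fewer germ cells from less RNA per germ cell.

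The library contents differed within each group in ways that bear on every value below. The libraries held 18628030 to 20394371 reads recovered as whole numbers from the FPKM values. Transcripts of adult animals (9 genes, among them the yolk protein genes vit-1 to vit-6 and the cuticle collagen gene col-19) summed to 422 FPKM in DL 2 and 11.1 to 12.9 in the other DL libraries, and to 206 FPKM in NL 3 and 2.11 to 10.6 in the other NL libraries. The shared label of young adulthood thus covers libraries that differ widely in these transcripts. Oocyte and eggshell markers (14 genes) summed to 118 to 652 FPKM in DL and 45.6 to 214 in NL. Sperm markers (13 loci) summed to 114 to 305 FPKM in DL and 6.59 to 113 in NL, with 5 loci at 0 in NL 4. Body wall muscle markers (7 genes) summed to 2055 to 2995 FPKM in DL and 2110 to 3694 in NL, and somatic gonad markers (5 genes) to 116 to 151 FPKM in DL and 119 to 181 in NL. Early embryo markers (7 genes) summed to less than 1 FPKM in every library, with pes-10 at 0 in all 8.

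Germline transcripts stood higher in DL than in NL on average, by small amounts that did not pass the test. Of the 38 genes, 37 had positive log2 changes, against 53.5% of all tested genes, and the median was 0.37, against 0.03 over all tested genes. Limma called 0 of the 38 at an adjusted p under 0.05, where 0.703% of all tested genes were called (0.293% called higher). Limma voom on reads recovered from the FPKM values also called 0, of 37 tested. At an unadjusted p under 0.05 the limma fit to log2(FPKM + 1) picked 6 of the 38, all higher in DL (nos-2, gld-1, gld-3, deps-1, glh-4 and pgl-1), against 12.4% of all tested genes higher and 8.24% lower, so this share lay near the background. On that scale a change of a low gene is understated, and all log2 changes are given as DL over NL. Of the 6 genes, nos-2 passed the filter on low values only through DL, where it was higher. Adjusted p-values of the 38 ran from 0.156 to 0.929. Only chk-2 had DL and NL libraries that did not overlap, with DL higher, where 4.44% of all tested genes did so.

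**Figure D1:**
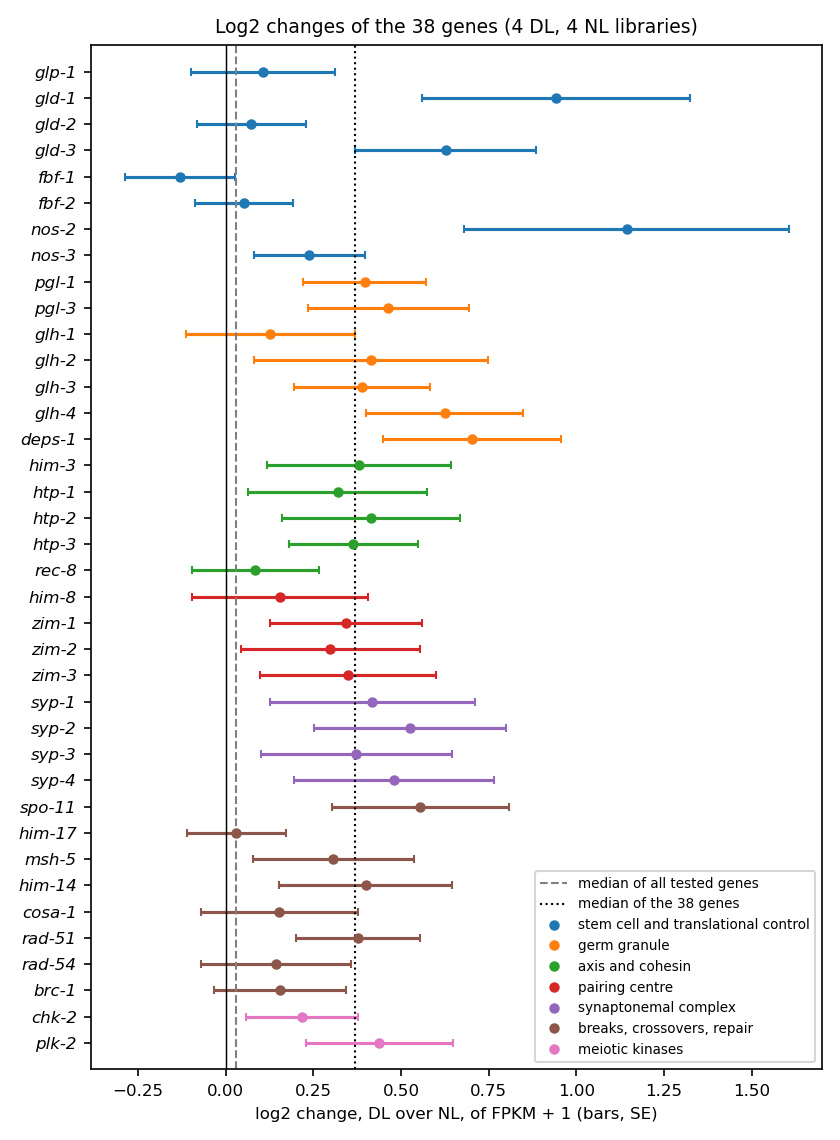
Log2 change (DL over NL, of FPKM + 1) on the horizontal axis for each of the 38 genes, coloured by role, with SE bars; the dashed line is the median of all tested genes (0.03) and the dotted line that of the 38 (0.37). All points but fbf-1 lie right of 0, and nos-2 and gld-1 lie farthest right with wide bars.

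The difference followed single libraries more than the groups. DL 2 was the highest of the 8 libraries for 34 of the 38 genes (22.9% of all tested genes), and NL 4 was the lowest for 29 (22.4% of all tested genes). Relative to each gene's mean over the 8 libraries, the median of the 38 on the log2 scale was 0.13, 0.51, 0.04 and -0.07 in DL 1 to DL 4 and -0.11, -0.01, 0.06 and -0.60 in NL 1 to NL 4. DL thus had 1 high library and 3 near the mean, and NL had 1 low library and 3 near the mean. In 12 of the 38 genes DL 1, DL 3 and DL 4 all stood above NL 1, NL 2 and NL 4, against 16.7% of all tested genes. In NL 3, the NL library with the most adult transcripts, 32 of the 38 genes stood at or above the lowest DL library, and so did 83.7% of all tested genes. Over all tested genes the same medians lay between -0.05 in NL 4 and 0.04 in NL 3.

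**Figure D2:**
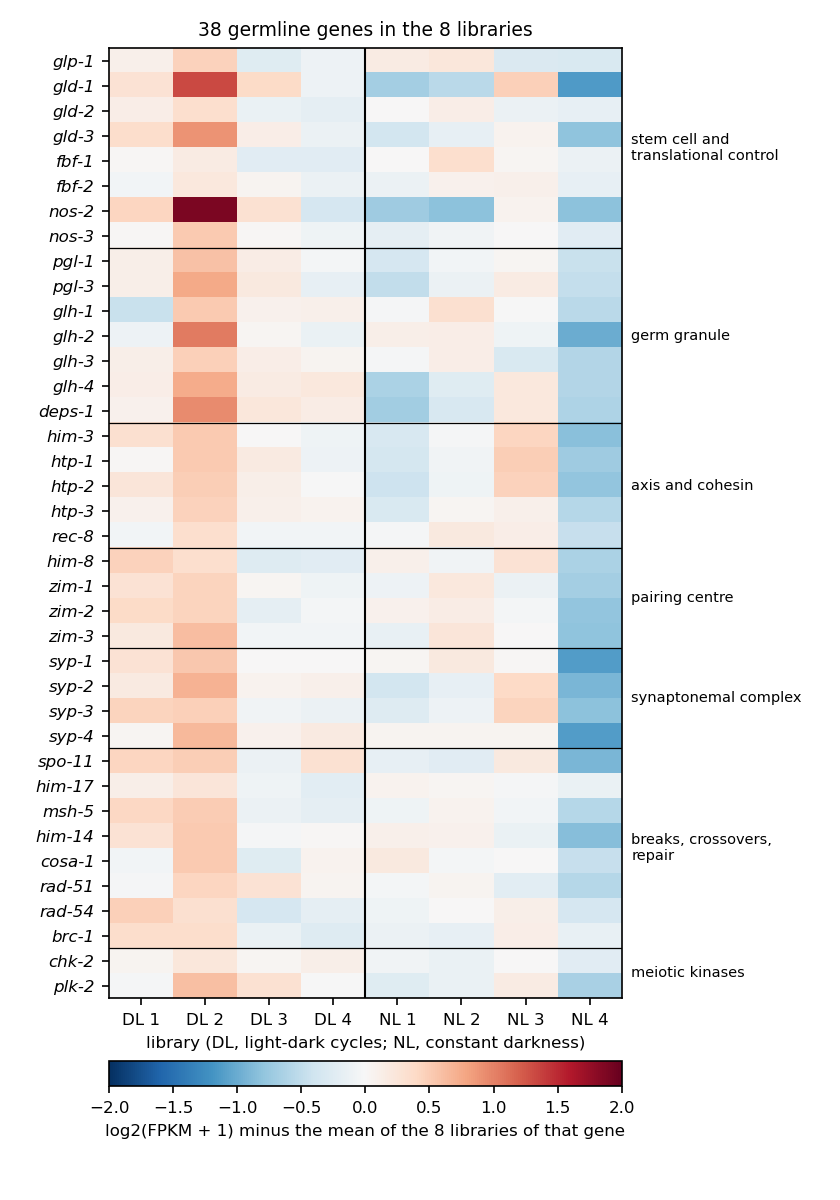
Each row is 1 of the 38 genes, grouped by role, and each column a library, DL left of NL; colour is log2(FPKM + 1) minus the gene's mean over the 8 libraries. The DL 2 column is red in nearly every row and the NL 4 column blue, while fbf-1, fbf-2, gld-2 and him-17 are pale throughout.

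Within batches, which here pair libraries by replicate number only, the sign was not the same in all. The median DL minus NL difference of the 38 genes on the log2 scale was 0.35 in batch 1, 0.47 in batch 2 and 0.63 in batch 4, but -0.03 in batch 3, whose NL library is NL 3. There the axis genes had a median of -0.31 and the synaptonemal complex genes one of -0.17. In all 4 batches, 13 of the 38 were higher in DL, against 13.3% of all tested genes; 19 were higher in 3 batches, 5 in 2, and fbf-1 in 1. With the batch as a block limma also called 0 of the 38, with a smallest adjusted p of 0.18.

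**Figure D3:**
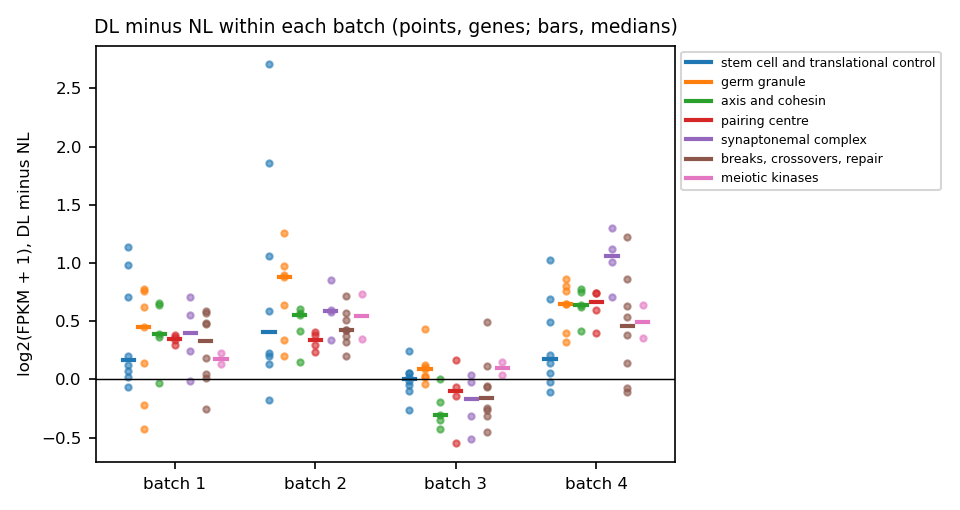
DL minus NL difference of log2(FPKM + 1) within each of the 4 batches, a point per gene and a bar at the median of each role group. Batches 1, 2 and 4 lie mostly above 0 and batch 3 lies on both sides of 0.

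The stem cell and translational control genes divided into steady and variable members. The median log2 change of the 8 was 0.17, with a range of -0.13 to 1.14. The Notch receptor gene glp-1, which keeps distal germ cells in mitosis, had 11.3, 14.8, 8.74 and 9.72 FPKM in DL 1 to DL 4, against 11.8, 12.5, 8.39 and 8.28 FPKM in NL 1 to NL 4 (log2 change 0.11 ± 0.21, SE; limma adjusted p = 0.816). Its groups overlapped fully, and NL 3 and NL 4 shared the low end with DL 3. The PUF family genes fbf-1 and fbf-2, whose proteins keep stem cells undifferentiated by repressing messages such as that of gld-1, averaged 13.5 ± 1.97 and 13.3 ± 1.46 FPKM in DL and 14.9 ± 2.21 and 12.8 ± 1.33 FPKM in NL (SD, n = 4 each). The poly(A) polymerase gene gld-2 averaged 19.1 ± 3.45 FPKM in DL and 18 ± 1.79 in NL. For fbf-1 the log2 change was -0.13 ± 0.16, the single negative one of the 38. The proteins FBF-1 and FBF-2 are near-identical, and how reads that fit both genes were counted is not given in the sources used here.

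In contrast gld-1, which encodes the translational repressor that carries germ cells into meiosis and oogenesis, spread over a wide range. It had 91.9, 187, 97.5 and 69.2 FPKM in DL 1 to DL 4, against 46.1, 50.8, 104 and 33.5 FPKM in NL 1 to NL 4 (log2 change 0.94 ± 0.38; limma adjusted p = 0.202). NL 1, NL 2 and NL 4 stood below every DL library, and NL 3 stood above all DL libraries but DL 2. The Bicaudal-C family gene gld-3, whose protein partners GLD-2, had 12.8, 19.2, 10.8 and 9.05 FPKM in DL, against 7.45, 8.70, 10.4 and 5.23 in NL (0.63 ± 0.26; limma adjusted p = 0.209). Here too NL 3 was the NL library that reached into the DL range.

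The ratio of gld-1 to glp-1 within a library does not depend on a scaling of the whole library. It was 8.14, 12.6, 11.2 and 7.12 in DL 1 to DL 4, against 3.90, 4.05, 12.4 and 4.04 in NL 1 to NL 4. NL 1, NL 2 and NL 4 lay close together and below every DL library, while NL 3 lay near the top of the DL range. The ratio of gld-3 to gld-2 had the same order of groups, at 0.562 to 0.816 in DL against 0.320 to 0.429 in NL 1, NL 2 and NL 4, with NL 3 at 0.618. Both ratios were chosen after their values were seen and were not tested.

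Of the Nanos homologs, nos-2, known for its role in the primordial germ cells of the embryo, was the lowest of the 38. It had 1.38, 5.52, 1.19 and 0.406 FPKM in DL, against 0.0853, 0, 0.850 and 0 FPKM in NL (log2 change 1.14 ± 0.46; limma adjusted p = 0.201). These values rest on 37, 139, 27 and 10 reads in DL and on 2, 0, 21 and 0 reads in NL; counts of 3 or fewer lie at the limit that a count of 0 allows, and intervals from reads cover counting error only. NL 3 again overlapped DL. The gene passed the filter on low values, at a mean of 1.18 FPKM, only through DL (mean 2.12 FPKM, against 0.234 in NL). Its test thus rests on the group where it is high and gives no separate support for a difference. The second homolog, nos-3, which acts with FBF in the switch from sperm to oocytes, had 30.4 to 46.9 FPKM in DL and 27.5 to 32.5 FPKM in NL (0.24 ± 0.16). In WBcel235 nos-2 (chromosome II, 7065618 to 7067051, plus strand) lies within the span of him-14 (7065020 to 7069966, minus strand), and 12.4% of its exon bases are also exon bases of him-14. The library kit does not mark strand, so reads of that stretch cannot be told apart.

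**Figure D4:**
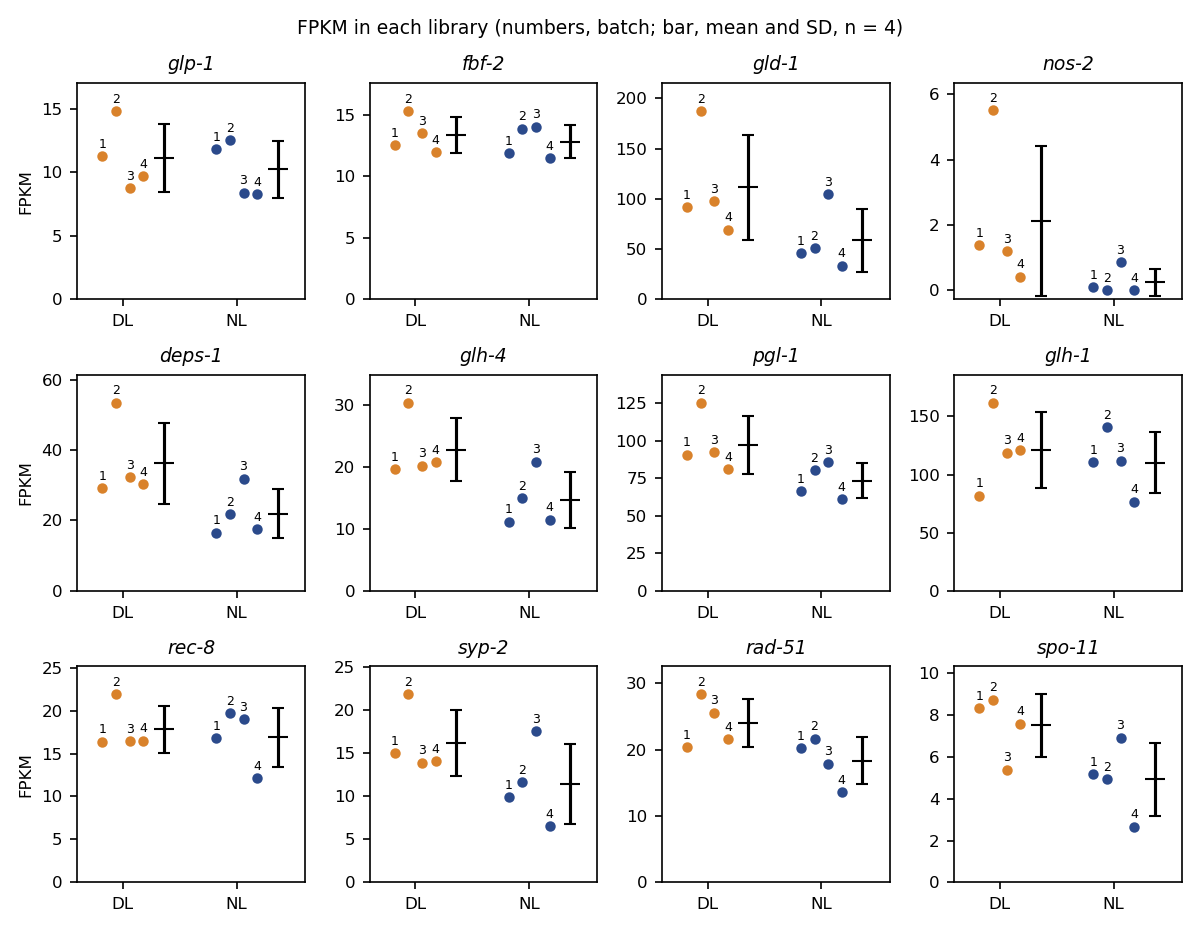
FPKM of 12 of the genes in each library (dots, numbered by batch, DL left of NL) with the mean and SD of each group (n = 4). In gld-1, deps-1, glh-4 and syp-2 the DL libraries lie above NL 1, NL 2 and NL 4, and NL 3 reaches into the DL range; glp-1, fbf-2 and rec-8 overlap throughout.

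Germ granule genes all had positive log2 changes (7 of 7, median 0.42), where 53.5% of all tested genes were positive. At an unadjusted limma p under 0.05, 3 of the 7 were higher in DL, against 12.4% of all tested genes. The stem cell and translational control genes held 3 of 8 such genes. Limma called 0 of the 7 at an adjusted p under 0.05. The gene deps-1, needed for the assembly of P granules, had 29.1, 53.4, 32.3 and 30.4 FPKM in DL 1 to DL 4, against 16.5, 21.8, 31.9 and 17.6 FPKM in NL 1 to NL 4 (log2 change 0.70 ± 0.25; limma adjusted p = 0.158). For glh-4, a Vasa-type RNA helicase gene, the values were 19.6, 30.4, 20.2 and 20.8 FPKM in DL, against 11.2, 14.9, 20.9 and 11.5 FPKM in NL (0.62 ± 0.22; limma adjusted p = 0.156). In both genes only NL 3 kept the groups from separating, and DL 2 stood well above the other DL libraries.

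The scaffold protein gene pgl-1 had 90.9, 126, 92.5 and 81.1 FPKM in DL, against 66.3, 80.5, 85.9 and 61.4 FPKM in NL (0.40 ± 0.18; limma adjusted p = 0.242). Its groups overlapped only through NL 3 and DL 4. Its relative pgl-3 averaged 33.3 ± 9.79 FPKM in DL and 23.6 ± 5.63 in NL (0.46 ± 0.23). The most abundant of the 38 was glh-1, the main Vasa-type helicase, with 82.0, 162, 119 and 121 FPKM in DL, against 111, 141, 112 and 76.9 FPKM in NL (0.13 ± 0.24; limma adjusted p = 0.811). Its groups overlapped fully, and DL 1 stood below 3 of the 4 NL libraries. The other Vasa-type genes, glh-2 and glh-3, had log2 changes of 0.42 ± 0.33 and 0.39 ± 0.19.

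Without NL 3, the library with the most adult transcripts in the dark group, limma called 3 of the 38, all higher in DL. These were gld-1 (log2 change 1.26, limma adjusted p = 0.0424), glh-4 (0.80, 0.0375) and deps-1 (0.89, 0.0439). In that fit 8.18% of all tested genes were called higher, a share close to 3 of 38. Without both NL 3 and DL 2 the same 3 were called (gld-1 0.98, limma adjusted p = 0.0306; glh-4 0.66, 0.0478; deps-1 0.69, 0.0347), where 8.53% of all tested genes were called higher, and the median of the 38 was 0.28.

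Genes of the chromosome axis had log2 changes of 0.08 to 0.42 (5 of 5 positive, median 0.36), and NL 4 was the lowest library and DL 2 the highest for each. Among the HORMA-domain axis genes htp-2 had 24.5, 29.3, 22.4 and 20.5 FPKM in DL 1 to DL 4, against 15.2, 19.4, 28.7 and 11.5 FPKM in NL 1 to NL 4 (0.42 ± 0.25; limma adjusted p = 0.404). NL 3 came second only to DL 2. The same placing of NL 3 held for its close paralog htp-1 (50.1 FPKM in NL 3, DL 33.0 to 51.6) and for him-3 (44.6 FPKM in NL 3, DL 31.2 to 47.8). The ratio of htp-1 to htp-2 was 1.47 to 1.80 in DL and 1.73 to 1.84 in NL, and how reads common to both paralogs were counted is not known. A further axis gene, htp-3, averaged 21.6 ± 3.13 FPKM in DL and 16.7 ± 3.72 in NL. The meiotic cohesin gene rec-8 was steadier, with 16.4, 21.9, 16.4 and 16.5 FPKM in DL, against 16.8, 19.7, 19 and 12.1 FPKM in NL (0.08 ± 0.18; limma adjusted p = 0.837).

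The 4 pairing centre genes, zinc finger genes that lie in a row on chromosome IV (zim-1 from 10547086, then zim-2 and zim-3, him-8 to 10563974), had log2 changes of 0.15 to 0.35. Of them zim-3 had 10.9, 15.1, 9.03 and 9.03 FPKM in DL, against 8.42, 11.3, 9.50 and 5 FPKM in NL (0.35 ± 0.25; limma adjusted p = 0.484), and the groups overlapped. The protein HIM-8 binds the X chromosome and the ZIM proteins the autosomes. Levels of him-8, zim-1 and zim-2 were 7.62 to 13.1, 7.48 to 11.3 and 3.91 to 6.63 FPKM in DL and 5.67 to 11.6, 4.62 to 9.43 and 2.24 to 5.21 FPKM in NL. Exons of zim-1 and zim-2 overlap on the same strand (11% of the exon bases of zim-1), so part of their reads is shared.

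The synaptonemal complex genes syp-1 to syp-4, which encode proteins of its central region, had log2 changes of 0.37 to 0.53 (4 of 4 positive, median 0.45). The largest was that of syp-2, with 15, 21.9, 13.9 and 14.1 FPKM in DL, against 9.90, 11.6, 17.6 and 6.51 FPKM in NL (0.53 ± 0.27; limma adjusted p = 0.321). All DL libraries stood above NL 1, NL 2 and NL 4 and only DL 2 above NL 3. NL 4 set much of the difference in this group: syp-1 stood at 3.18 FPKM there and at 8.22 to 9.39 in the other NL libraries, against 8.07 to 12.1 in DL, and syp-4 at 6.72 FPKM there and 16.4 to 16.5 in the other NL libraries, against 16.3 to 25.4 in DL. For syp-3 the values were 12.3 to 19.1 FPKM in DL and 7.10 to 18.5 in NL.

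Genes of meiotic breaks, crossovers and repair had a median log2 change of 0.23 (8 of 8 positive, 0.03 to 0.56). The gene spo-11, whose product cuts DNA to start recombination, had 8.32, 8.72, 5.38 and 7.58 FPKM in DL, against 5.18, 4.93, 6.92 and 2.67 FPKM in NL (0.56 ± 0.25; limma adjusted p = 0.259). DL 3 lay among the NL libraries, and NL 3 was the highest of those. The recombinase gene rad-51 had 20.4, 28.3, 25.6 and 21.6 FPKM in DL, against 20.3, 21.6, 17.9 and 13.6 FPKM in NL (0.38 ± 0.18; limma adjusted p = 0.271), and the groups overlapped through NL 2, which stood above DL 1 and just above DL 4. For rad-51 NL 3 stood below NL 1 and NL 2. The MutS homologs msh-5 and him-14, which stabilize crossover intermediates, averaged 4.95 ± 1.43 and 5.52 ± 1.17 FPKM in DL and 3.77 ± 0.853 and 4.05 ± 1.35 FPKM in NL. The crossover factor gene cosa-1 averaged 4.46 ± 1.32 FPKM in DL and 3.88 ± 0.887 in NL. Repair genes rad-54 (rad-54.L) and brc-1, the BRCA1 homolog, had log2 changes of 0.14 ± 0.21 and 0.15 ± 0.19, and him-17, needed for break formation, one of 0.03 ± 0.14.

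The meiotic kinase genes differed in level and in spread. The gene chk-2, whose kinase starts pairing and break formation, had 3.15, 3.64, 3.11 and 3.33 FPKM in DL, against 2.78, 2.65, 3 and 2.39 FPKM in NL (0.22 ± 0.16; limma adjusted p = 0.49). Its groups did not overlap, but the lowest DL and the highest NL library were 3.11 and 3 FPKM. The polo-like kinase gene plk-2, which acts at pairing centres, had 25.5, 39.8, 32.3 and 25.7 FPKM in DL, against 21.6, 23.5, 29.0 and 16.1 FPKM in NL (0.44 ± 0.21; limma adjusted p = 0.28).

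The libraries at either end for the 38 genes were also those at either end for the markers of oocytes, sperm and adult animals. DL 2, where the 38 were highest, had the largest oocyte and eggshell sum (652 FPKM), sperm sum (305 FPKM) and adult sum (422 FPKM). NL 4, where they were lowest, had the smallest of each (45.6, 6.59 and 2.11 FPKM). Between these ends the order differed. NL 3 had a larger oocyte and eggshell sum than DL 1 (214 and 164 FPKM) but a lower median of the 38 (0.06 and 0.13). The part of these cell types, of muscle and of the adult transcripts in the differences above was not tested.

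**Figure D5:**
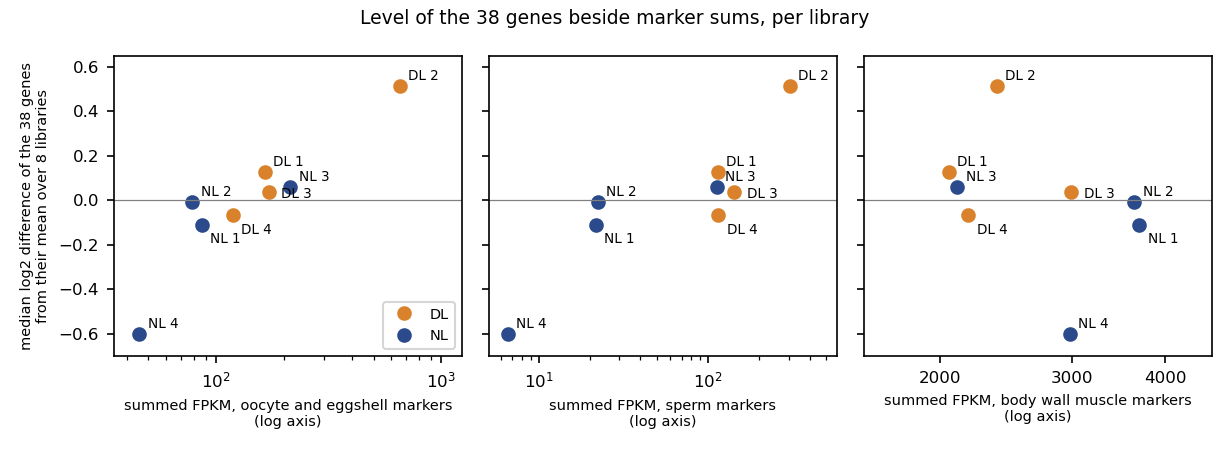
Median log2 difference of the 38 genes from their means over the 8 libraries (vertical axis) against the summed FPKM of oocyte and eggshell, sperm and body wall muscle markers (log axes), a point per library. DL 2 lies highest at the right of the first 2 panels and NL 4 lowest at their left.

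Other genes of the same processes, 61 in 4 lists, had mostly positive log2 changes too. Of these 56 were tested (47 positive and 9 negative changes, where 53.5% of all tested genes were positive) and limma called 0. At an unadjusted p under 0.05 there were 7 higher and 2 lower in DL, against 12.4% and 8.24% of all tested genes, so the share of higher genes lay at the background. The median log2 change was 0.16 over 14 tested stem cell and translational control genes, 0.42 over 6 germ granule genes, 0.24 over 14 genes of pairing, synapsis and cohesion and 0.18 over 22 genes of breaks and crossovers. The genes with the smallest p of the last 3 lists were mip-2, a germ granule gene (0.51 ± 0.22, limma adjusted p = 0.233), lab-1, which protects cohesion in meiosis (1.20 ± 0.40, limma adjusted p = 0.134), and zhp-2, a crossover RING protein gene (0.58 ± 0.21, limma adjusted p = 0.155). The lab-1 values were 4.53, 13, 5.28 and 5.17 FPKM in DL, against 3.48, 1.45, 4.17 and 0.902 FPKM in NL, with no overlap.

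The smallest p of the first list belonged to fog-3, which directs germ cells to become sperm, and the difference ran the other way. It had 9.14, 7.52, 6.62 and 7.13 FPKM in DL, against 12.5, 17.8, 12.3 and 11.2 FPKM in NL (log2 change -0.74 ± 0.18; limma adjusted p = 0.0933). Its partner in that decision, fog-1, chosen after its values were seen, had 7.04, 5.13, 8.69 and 6.86 FPKM in DL, against 15.2, 15.2, 8.81 and 13.6 FPKM in NL (-0.83 ± 0.21; limma adjusted p = 0.1). In both genes every DL library lay below every NL library, as for 4.80% of all tested genes. For fog-1 NL 3 stood close to DL 3. Without NL 3 both passed, fog-1 at -0.997 (limma adjusted p = 0.0143) and fog-3 at -0.77 (0.0447), where 2.69% of all tested genes were called lower. Without NL 3 and DL 2 fog-1 passed (-0.88, limma adjusted p = 0.0157) and fog-3 did not (-0.77, 0.0803), where 1.87% of all tested genes were called lower. The other pathway gene called in that fit ran the opposite way: cgh-1, a DEAD-box RNA helicase gene of germ granules, named after its values were seen, was higher in DL (0.78, limma adjusted p = 0.0299). It had 174, 374, 168 and 131 FPKM in DL, against 90.2, 97.7, 191 and 84.6 FPKM in NL, with NL 3 inside the DL range, and did not pass with all libraries (0.83 ± 0.36, limma adjusted p = 0.235).

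In the genome the 38 genes lay on chromosomes I (12), II (6), III (3), IV (12) and V (5) and none on X, which held 13.5% of the tested genes. The neighbours pgl-1 (chromosome IV, 6974441 to 6977318, minus strand) and him-3 (6977508 to 6978765, plus strand) are read away from each other, and their log2 changes were 0.40 ± 0.18 and 0.38 ± 0.26.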

How the data were processed

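Poly(A)-selected RNA of whole animals was sequenced in 8 libraries, 4 DL and 4 NL. The authors deposited FPKM values per gene, per the file headers, in 1 table. HISAT2, HTSeq and the build WBcel235 are named in the submitters' processing notes without versions. The sources used here do not give the annotation, the strand setting or any filter. Symbols came from a table of WormBase IDs (44113 of 46934 matched) and positions from the Ensembl annotation of WBcel235, the build in the notes.

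With exon lengths from that annotation, 22881 of 22985 genes (99.5%) gave whole reads in all libraries within 0.05 read; nos-3 did not. The library total implied by FPKM and reads was 0.938 to 1.16 of the recovered sum, and its origin is not described. The DL to NL contrast was fitted in limma 3.58.1 (R 4.3.3) to log2(FPKM + 1) of loci with a mean of at least 1 FPKM, with an intensity trend, two-sided, with Benjamini-Hochberg adjustment over 14358 loci and a threshold of 0.05. Tables and figures used matplotlib 3.10.9, numpy 2.4.6 and pandas 2.3.3 under Python 3.11.15.

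The members, role groups, marker lists and lists of other genes, and the rule for named genes, were chosen with earlier results of these data known. Values per library are given for genes with an unadjusted p under 0.05, for the largest change of each role group, and for glp-1, gld-1, pgl-1, glh-1, rec-8 and rad-51; those of chk-2 were added after its values were seen. Of other lists the gene with the smallest p is named. The 13 sperm marker loci stand for 12 symbols, as ssp-9 names 2 loci.

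Libraries with the same replicate number were given the same batch number and paired by it, though no source states a batch. Their deviations from the group means correlated at -0.0072, -0.19, -0.32 and 0.19 in the 4 batches. Within a group, every pair of libraries differed beyond sampling noise (chi-square per gene 8.06 for NL 1 and NL 2 and 23.7 for DL 3 and DL 4, 58.6 to 116 for the others). On simulated data of DL against NL with 14358 genes, 59% of 2-fold and 89% of 4-fold changes were called. The changed genes were drawn only from those above a set mean level, and noise was drawn for each gene on its own. Low genes and shifts that many genes of a library share were therefore not covered. Other settings tried were another pseudocount, filter and scaling, a batch block, left-out libraries and, chosen after seeing the data, limma voom on recovered reads.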

Additional observations from a re-analysis of the deposited data

Results flagged for a closer look

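In each group of 4 libraries, a library was marked where its gap to the nearest other took up too much of the group's range. The limit was Dixon's critical value at the 95% level. Chance marks about 1 in 20 groups taken singly, and 17 of 98 groups examined were marked. The groups come from the same libraries, in which many genes move together. The marks are therefore not independent, and that rate cannot be set against their number. Among the 38 genes there were 11 marks in 76 groups, of which 8 were DL 2 standing above the other DL libraries. In DL 2, nos-3 stood at 46.9 FPKM (others 30.4 to 33.0), glh-2 at 21.3 (8.94 to 10.2), glh-3 at 12.1 (8.83 to 9.34), glh-4 at 30.4 (19.6 to 20.8) and deps-1 at 53.4 (29.1 to 32.3). Also in DL 2, htp-3 stood at 26.3 FPKM (19.8 to 20.3), rec-8 at 21.9 (16.4 to 16.5), syp-2 at 21.9 (13.9 to 15) and lab-1, of the other pathway genes, at 13 (4.53 to 5.28).

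In the dark group NL 3 stood apart for nos-2 at 0.850 FPKM (others 0 to 0.0853) and for brc-1 at 8.14 (6.42 to 6.65), and NL 4 for syp-4 at 6.72 (16.4 to 16.5). Among the marker sums, DL 2 and NL 3 were marked and NL 4 was not. In DL 2 the adult sum was 422 FPKM (others 11.1 to 12.9), the oocyte and eggshell sum 652 (118 to 171) and the sperm sum 305 (114 to 144). In NL 3 the adult sum was 206 FPKM (2.11 to 10.6) and the sperm sum 113 (6.59 to 22.4).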

How the results depend on the processing

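The median log2 change of the 38 genes stayed positive under every alternative run, at 0.17 (without NL 4) to 0.44 (without NL 2) with 1 library left out. The 38 had 0 calls under each setting except without NL 3, and without NL 3 and DL 2 (3 each); with 1 library left out, calls ran from 0 to 3 among the 38 and from 0 to 2 among the other pathway genes (2 also without NL 3 and DL 2). Over all genes 101 were called (42 higher, 59 lower), 33 without a filter, 216 (67 and 149) with quantile normalization, 25 with the batch as a replicate block, 1493 without NL 3 and DL 2, and 9 to 1561 with 1 library left out (9 without NL 1 or NL 2, 15 and 19 without DL 4 and DL 3, 42 without DL 1, 221 without NL 4, 1561 without NL 3). Scaling to the same sum gave 40 higher and 31 lower, and centring on the median gene 44 and 106. The block changed no call among the 38 or the other genes named. The 19 changes of sign were all in genes with small log2 changes. Centred and by quantiles fbf-2 was -0.0043 and -0.0013 and him-17 -0.026 and -0.020. Without NL 3 and DL 2, glp-1 was -0.11, gld-2 -0.057, glh-1 -0.0069 and him-17 -0.051. With 1 library left out, ranges were -0.045 to 0.10 for him-17, -0.030 to 0.20 for glp-1, -0.027 to 0.15 for gld-2, -0.012 to 0.098 for fbf-2, -0.034 to 0.30 for glh-1, -0.058 to 0.16 for rec-8 and -0.030 to 0.28 for him-8; the cause was not tested. Limma voom on recovered reads called 0 of 37. The log2 change of nos-2 rests on few reads and ran from 0.71 (without DL 2) to 4.16 (voom). A count test planned for recovered reads was not run. Changes under 2-fold, most of those here, were not covered by the simulation.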
